A study of Mus musculus with 4 samples.

Results

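Inversional joins are those in which a break in the Sμ switch region of the immunoglobulin heavy chain locus was joined to the Sγ1 or Sε switch region in the orientation that would turn the intervening DNA around rather than delete it. Their members here are all junctions listed on the plus strand of chromosome 12 (mm9) in Sγ1 and Sε. There were 956 of them, 699 in Sγ1 and 257 in Sε, among 12713 junctions to both regions and 18731 junctions in all. Each was set beside the minus-strand, deletional joins of the same region and the same library, 7389 in Sγ1 and 4368 in Sε.

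Class switch recombination replaces the constant gene of an antibody by cutting 2 switch regions, long repetitive intronic stretches in front of the constant genes, and joining the ends. The deaminase AID starts the breaks, and the ends are sealed by classical end joining or by an alternative route that uses more microhomology, short bases shared by both ends. A deletional join keeps the DNA downstream of the Sγ1 or Sε break and yields a working switched gene. An inversional join keeps the DNA upstream of the break, leaves no switched product, and is known to be the rarer outcome in normal B cells.

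Splenic CD43- B cells had been kept for 4 days in anti-CD40 (1 ng/mL) plus IL-4 (20 ng/mL), signals that favour IgG1 and IgE. The 4 groups, with 1 library each, were Wildtype (CD21Cre+ with CtIP +/C and XRCC4 +/C), CtIP_AA (homozygous for the T855A substitution of CtIP, with no Cre or XRCC4 allele in its label), CtIP_KO (CD21Cre+ with CtIP C/- and XRCC4 +/C) and XRCC4_KO (CD21Cre+ with CtIP +/- and XRCC4 C/-). CtIP starts the resection of broken ends, and XRCC4 works with DNA ligase IV to seal ends in the classical route. CD21Cre acts in mature B cells, so cells that escaped deletion can be present in the libraries labelled KO. All mice carried preassembled heavy and light chain genes, and the labels give the strain both as BL6 and as 129Sv. The libraries held 9435, 3220, 2555 and 3521 junctions in the order above. With 1 library per genotype, each p below compares junction counts of libraries or strands, every interval covers counting error only, and the sources used here do not give the number of mice behind a library.

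The joins themselves show the geometry. Reads are primed in Sμ, from the nested primer here in capitals, and run down the minus strand of chr12:114664849-114664909 into the break. In some listed reads the bait alignment lay away from the primer. Among blunt Wildtype Sγ1 reads these were 5 of 74 inversional and 37 of 849 deletional ones. A total of 1944 listed reads of blunt joins began with the following stretch.

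Sμ bait: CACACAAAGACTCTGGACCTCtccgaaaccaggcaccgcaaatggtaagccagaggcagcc

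Blunt inversional joins, with neither shared nor added bases, then turn into the plus strand of the target region. The following come from the coordinates with most inversional joins, as far as a blunt read was listed there, and show what a plus-strand join looks like. The last 25 bases of Sμ are in lower case and the first 25 bases of the target in capitals.

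Wildtype, Sγ1 114574207: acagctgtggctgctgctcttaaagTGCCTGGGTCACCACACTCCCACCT

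Wildtype, Sγ1 114575800: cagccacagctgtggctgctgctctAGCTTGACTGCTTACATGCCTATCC

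XRCC4_KO, Sγ1 114573206: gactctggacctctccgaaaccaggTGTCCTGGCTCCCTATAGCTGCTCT

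XRCC4_KO, Sγ1 114572235: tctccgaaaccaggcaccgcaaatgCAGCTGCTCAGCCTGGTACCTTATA

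CtIP_AA, Sε 114513032: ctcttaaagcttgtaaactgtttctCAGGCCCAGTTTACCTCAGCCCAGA

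Each of the 4 Sγ1 joins was seen in a single library, 4 times at 114574207, 114575800 and 114572235 and 5 times at 114573206, with the same bait end each time. The Sε position was found once each in CtIP_AA and CtIP_KO. Such identical reads may be copies of 1 molecule, which the files do not mark. The germline windows at the same places, with the bases kept by an inversional join in capitals, are the following on the plus strand.

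chr12:114574197-114574216: ggagctgctcTGCCTGGGTC

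chr12:114573196-114573215: cacttccaccTGTCCTGGCT

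chr12:114513022-114513041: agagctcaacCAGGCCCAGT

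Switch regions are built of repeats, in which the copy a read is placed in is less certain than its orientation, and no mm9 genome was used here to check the placement.

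Inversional joins were a small share of the joins to each region and a larger one in Sγ1 than in Sε. In Sγ1 they made up 332 of 4038 Wildtype joins (8.22%, 95% Wilson interval 7.41 to 9.11), 100 of 1413 CtIP_AA joins (7.08%, 5.85 to 8.53), 97 of 1047 CtIP_KO joins (9.26%, 7.65 to 11.2) and 170 of 1590 XRCC4_KO joins (10.7%, 9.27 to 12.3). In Sε they made up 139 of 2626 Wildtype joins (5.29%, 4.50 to 6.22), 42 of 774 CtIP_AA joins (5.43%, 4.04 to 7.25), 50 of 763 CtIP_KO joins (6.55%, 5.01 to 8.54) and 26 of 462 XRCC4_KO joins (5.63%, 3.87 to 8.12). The Sγ1 share was the higher of both in each of the 4 libraries. The odds ratio of Sγ1 over Sε was 1.60 in Wildtype (1.30 to 1.98, Fisher's exact adjusted p = 4.03e-05) and 2.01 in XRCC4_KO (1.30 to 3.21, exact adjusted p = 0.00415). In CtIP_KO it was 1.46 (1.01 to 2.12, exact adjusted p = 0.112), and CtIP_AA had 1.33 (0.906 to 1.97, exact adjusted p = 0.269). Neither of these passed the threshold of 0.05, with p-values adjusted over the 10 comparisons of shares.

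Against Wildtype, the inversional share was higher in XRCC4_KO in Sγ1 (odds ratio 1.34, 1.09 to 1.63, exact adjusted p = 0.0141). The call was lost with each position counted once (odds ratio 1.18, adjusted p = 0.291), and the XRCC4_KO odds ratio in Sε was 1.07 (0.665 to 1.65, exact adjusted p = 0.819). CtIP_AA and CtIP_KO had odds ratios of 0.850 (0.667 to 1.08) and 1.14 (0.889 to 1.45) in Sγ1, and of 1.03 (0.702 to 1.48) and 1.25 (0.880 to 1.77) in Sε. None of these 4 passed the test (exact adjusted p = 0.269 or more). With each position counted once the direction turned for CtIP_KO in Sγ1 (odds ratio 0.860) and for CtIP_KO, CtIP_AA and XRCC4_KO in Sε (0.950, 0.814 and 0.777), again with none passing.

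The inversional median lay upstream of the deletional median of the same library in every Sγ1 list, and in Sε in all libraries but XRCC4_KO. Coordinates fall along the direction of transcription here, so a higher coordinate is upstream, nearer to Sμ. In Sγ1 the inversional median of Wildtype was 114574339.5 (exact order-statistic 95% interval 114574205 to 114574529) and the deletional median 114573668 (114573613 to 114573719), so inversional joins sat 671.5 bp upstream. The same difference was 704.5 bp in XRCC4_KO, 577.5 bp in CtIP_KO and 415.5 bp in CtIP_AA. In the position-sorted part of each Sγ1 list, a smaller share of joins repeated a position. In Wildtype, 8.96% of inversional and 28.1% of deletional joins there still did. The parts of a list also differed in position, with Wildtype medians in the sorted part of 114574743 for inversional and 114573065 for deletional joins. The differences in that part were larger, at 1678 bp in Wildtype, 2384 bp in XRCC4_KO, 1609 bp in CtIP_KO and 1422 bp in CtIP_AA. The upper quartiles of all joins were further apart than the medians in every library, by 1524.75, 821 and 1093.25 bp in those libraries and by 1069.5 bp in Wildtype.

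Upstream of the pooled median of both strands lay 67.2% of the Wildtype inversional and 48.4% of the deletional Sγ1 joins (odds ratio 2.18, 1.71 to 2.79, exact adjusted p = 3.62e-10). The shares were 71% and 48.4% in CtIP_AA (odds ratio 2.61, 1.65 to 4.23, exact adjusted p = 4.42e-05) and 65.3% and 47.9% in XRCC4_KO (odds ratio 2.05, 1.45 to 2.91, exact adjusted p = 5.74e-05). Within the core of the region, defined below, the XRCC4_KO call was lost (odds ratio 1.32, exact adjusted p = 0.208). In CtIP_KO they were 56.7% and 49.3%, and the difference did not pass (odds ratio 1.35, 0.867 to 2.11, exact adjusted p = 0.191). With each position counted once CtIP_KO passed too (odds ratio 1.68, exact adjusted p = 0.044). Whether the odds ratio of a mutant library differed from that of Wildtype was tested by Woolf's test of homogeneity, an approximate chi-square test, and none of the 6 comparisons over both regions passed.

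**Figure D1:**
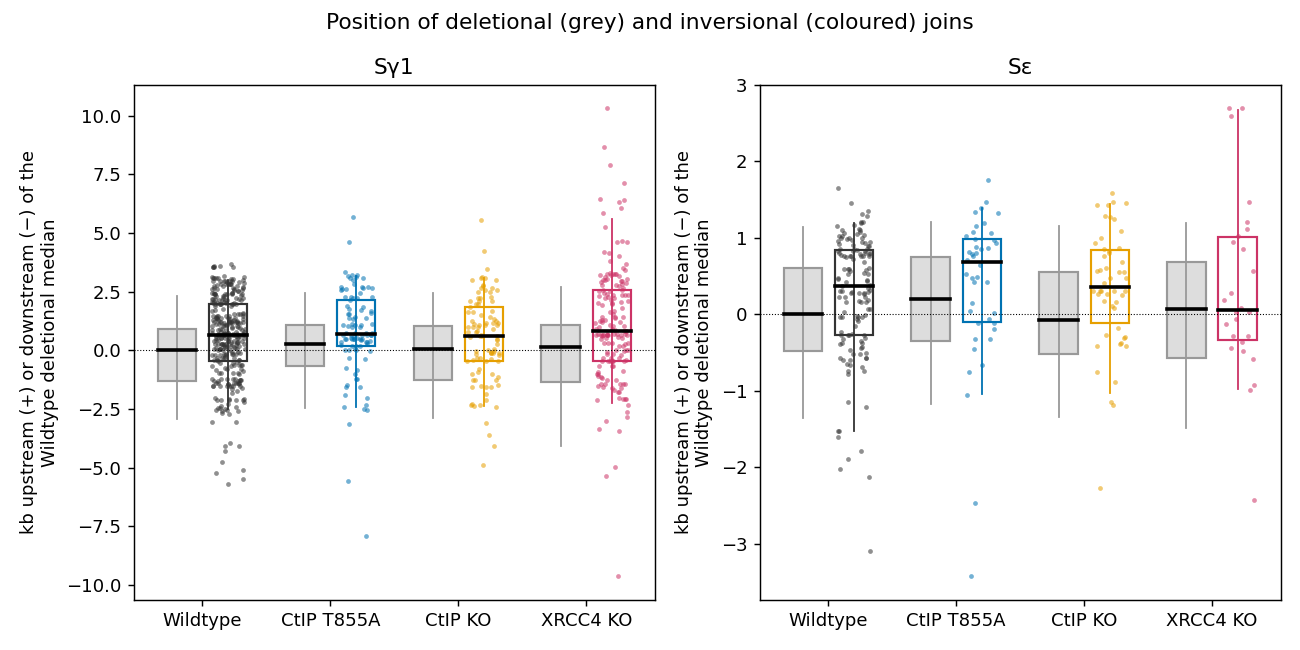
Position of joins in Sγ1 (left) and Sε (right) by library, in kb upstream (+) or downstream (−) of the median of Wildtype deletional joins. Filled grey boxes are deletional joins and open coloured boxes (black in Wildtype) inversional joins (quartiles, with the median as a thick line and lines to the 5th and 95th percentiles), and each point is an inversional join. CtIP T855A stands for CtIP_AA. The coloured boxes sit above the grey ones in Sγ1 in all 4 libraries, and in Sε the medians of XRCC4_KO are 12 bp apart.

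The upstream edge of Sγ1 showed the contrast most. The core of each region was taken as the central 95% of the deletional Wildtype joins (114570383.5 to 114576296.6 in Sγ1), which fixes the deletional Wildtype share beyond each border at about 2.5%. Upstream of it lay 41 of 332 inversional Sγ1 joins in Wildtype (12.3%, 9.24 to 16.3), against 2.51% of deletional ones (odds ratio 5.47, 3.62 to 8.15, exact adjusted p = 2.47e-13). In CtIP_AA the shares were 17% and 4.11% (odds ratio 4.77, 2.48 to 8.80, exact adjusted p = 1.71e-05). In CtIP_KO they were 12.4% and 3.89% (odds ratio 3.48, 1.59 to 7.13, exact adjusted p = 0.00411). In XRCC4_KO they were 24.7% and 5.63% (odds ratio 5.49, 3.53 to 8.46, exact adjusted p = 8.93e-13). In the position-sorted part alone the shares were higher, at 22.4% and 3.49% in Wildtype and 27.6% and 6.96% in CtIP_AA. They were 21.2% and 6.05% there in CtIP_KO, and 37.9% and 9.60% in XRCC4_KO. The joins upstream of the core were thus not spread evenly over the parts of each list.

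Downstream of the Sγ1 core the strands were closer. Inversional and deletional shares were 2.71% and 2.51% in Wildtype, 3.09% and 2.74% in CtIP_KO, and 2% and 1.45% in CtIP_AA, with odds ratios of 1.08 to 1.39. In XRCC4_KO they were 2.94% and 7.39%, an odds ratio of 0.380 (0.119 to 0.934) that missed the threshold (exact adjusted p = 0.0714). With the core narrowed to the central 90% it passed (odds ratio 0.335, exact adjusted p = 0.0148), and with each position counted once it also did (odds ratio 0.332, exact adjusted p = 0.0326). With the core widened to the central 99% it did not (odds ratio 0.430, exact adjusted p = 0.398), nor in the sorted part of the lists (odds ratio 0.350, exact adjusted p = 0.0555).

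**Figure D2:**
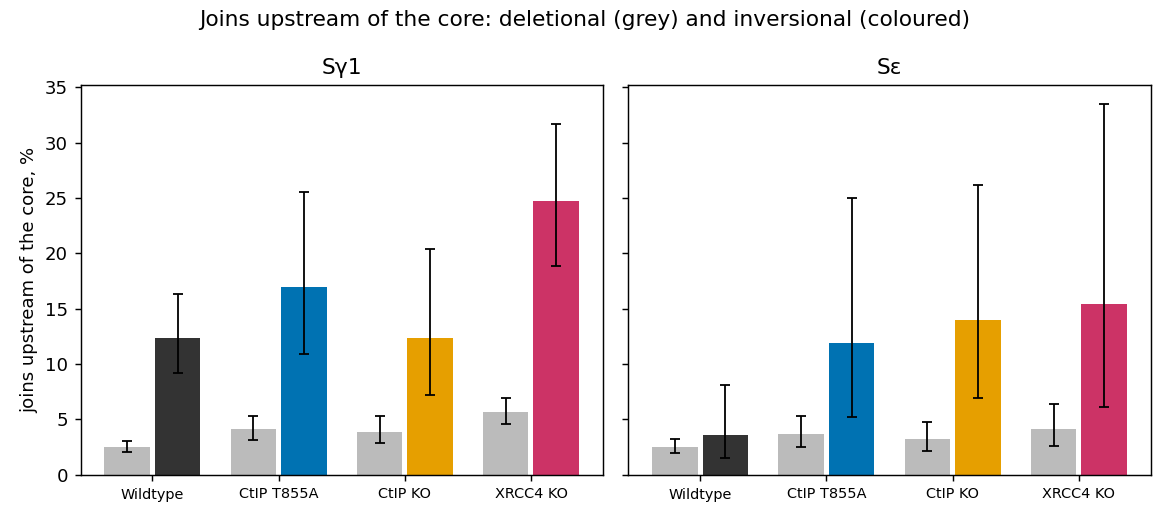
Share of joins upstream of the core of Sγ1 (left) and Sε (right), in percent of the joins of that strand, for deletional (grey) and inversional (coloured) joins of each library with 95% Wilson intervals. In Sγ1 the inversional bars stand at 12.3 to 24.7% and the deletional bars at 2.51 to 5.63%.

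In Sε the shift varied more between libraries. The inversional median was upstream of the deletional one by 374 bp in Wildtype, by 428.5 bp in CtIP_KO and by 482.5 bp in CtIP_AA. In XRCC4_KO it was 12 bp downstream, and 25 bp upstream with each position counted once. Upstream of the pooled median lay 65.5% of inversional and 49.1% of deletional joins in Wildtype (odds ratio 1.96, 1.36 to 2.87, exact adjusted p = 0.000456), and 74% and 48.2% in CtIP_KO (odds ratio 3.05, 1.55 to 6.36, exact adjusted p = 0.000643). The CtIP_KO count includes 5 reads at 114514087, described below, in which the Sε end was next to Sγ1. With each position counted once its odds ratio was 2.73 (exact adjusted p = 0.00338). CtIP_AA, with 42 inversional joins, had 64.3% and 49.2% (odds ratio 1.86, 0.936 to 3.82, exact adjusted p = 0.106). XRCC4_KO, with 26, had 50% on each strand (odds ratio 1, 0.417 to 2.40, exact adjusted p = 1).

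The Sε core ran from 114511918.3 to 114515050.8. Upstream of it lay 3.60% of inversional and 2.53% of deletional joins in Wildtype (exact adjusted p = 0.649), and 14% and 3.23% in CtIP_KO (7 of 50 inversional joins, odds ratio 4.87, 1.67 to 12.6, exact adjusted p = 0.0069). In CtIP_AA 5 of 42 (11.9%) and in XRCC4_KO 4 of 26 (15.4%) lay there, with odds ratios of 3.52 and 4.20 that missed the threshold (exact adjusted p = 0.0659 for both). The CtIP_KO call rests on where the border is set, since with the core widened to the central 99% none of the 50 inversional joins lay beyond it, against 0.701% of deletional ones.

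Read along Sγ1, the share of inversional joins was higher at the upstream end than in the middle. In Wildtype it was 12.5% at 4 to 5 kb downstream of the deletional median (4 of 32), 5.08%, 5.28% and 5.28% in the 3 bins of 1 kb just downstream of it, 7.87% in the first kb upstream, 10.3% in the second, 18.2% in the third (64 of 351) and 36.2% in the fourth (17 of 47, 24.0 to 50.5). In the third kb upstream the share was 13.7% in CtIP_AA (17 of 124), 19.3% in CtIP_KO (16 of 83) and 18.1% in XRCC4_KO (30 of 166). In the fourth it was 33.3% in CtIP_AA (7 of 21) and 32.6% in XRCC4_KO (15 of 46), and CtIP_KO had 4 of 16. The next kb held 6 inversional and 4 deletional joins in XRCC4_KO. These shares describe the same joins as the tests above.

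In Sε the Wildtype share went from 3.57% and 3.70% in the 2 bins of 500 bp just downstream of the deletional median to 5.19%, 7.39% and 9.68% in the 3 bins upstream of it. In the next bin upstream it was 5% (1 of 20). Further downstream than the bins named, the Wildtype share was 11.1% in a bin of 45 joins and 1.35% in one of 148. CtIP_AA had 12% (9 of 75) and CtIP_KO 14.1% (9 of 64) in the bin from 1000 to 1500 bp upstream, and XRCC4_KO 9.09% (4 of 44).

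**Figure D3:**
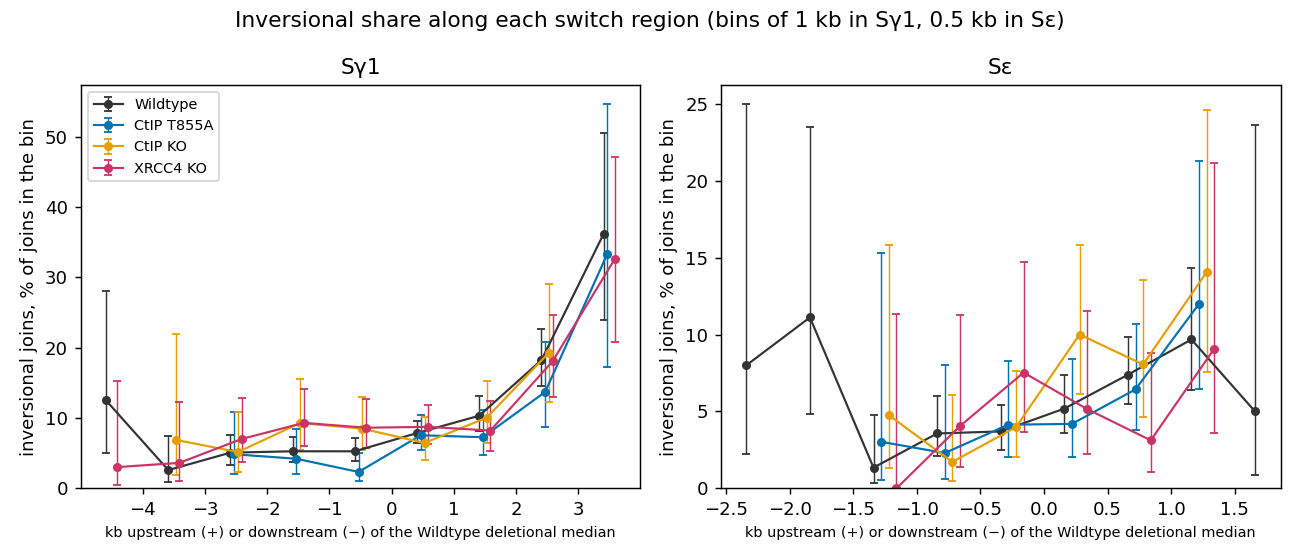
Inversional joins as a percent of all joins in each bin along Sγ1 (left, 1 kb bins) and Sε (right, 0.5 kb bins), by library, with 95% Wilson intervals. Bins with under 20 joins are not drawn. In Sγ1 all libraries drawn there stand between 13.7 and 19.3% in the third kb upstream, above the 2.34 to 8.63% of the kb just downstream of the Wildtype deletional median.

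The bins with the most inversional joins also held many deletional ones. The 3 bins of 500 bp with the most inversional Sγ1 joins ran from 114573500 to 114574999. The bin from 114574000 held 47 joins of Wildtype, 20 of XRCC4_KO, 10 of CtIP_KO and 25 of CtIP_AA. That is 14.2%, 11.8%, 10.3% and 25% of each library's inversional Sγ1 joins, beside 14.7%, 14.1%, 13.1% and 16.1% of its deletional ones. The next bin upstream held 76 over the libraries and the next downstream 71. The 3 leading Sε bins ran from 114513500 to 114514999. The most upstream of them, from 114514500, held 48 inversional joins of Wildtype, 15 of CtIP_AA, 8 of CtIP_KO and 5 of XRCC4_KO. That was 34.5% of the inversional and 17.7% of the deletional Wildtype joins, and 35.7% and 23.1% in CtIP_AA. In this bin the shares were 16% and 16.5% in CtIP_KO, and 19.2% and 19.3% in XRCC4_KO. The bin next to it, from 114514000, held 17 inversional joins of CtIP_KO, which was 34% of them against 18.4% of deletional joins, and 5 of the 17 lay at the single position 114514087.

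Among inversional joins alone, XRCC4_KO reached further upstream in Sγ1 than Wildtype. Beyond the core lay 24.7% (42 of 170) against 12.3% (41 of 332), with an odds ratio at 2.32 (1.40 to 3.86, exact adjusted p = 0.0105 over 18 comparisons). The most upstream inversional join of Wildtype was at 114577325, and 18 joins of XRCC4_KO lay beyond it, each at its own position, the farthest at 114583976. CtIP_AA and CtIP_KO had 2 each beyond that point. The call was lost with each position counted once (odds ratio 2.10, exact adjusted p = 0.0767). Deletional joins of XRCC4_KO had the same odds ratio against Wildtype, 2.32, upstream of the core. Downstream of it the XRCC4_KO odds ratios were 1.13 for inversional and 3.10 for deletional joins. Woolf's test found no difference between strands in either case, nor in any of the 12 comparisons of this kind.

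No other difference in inversional positions from Wildtype was detectable. The remaining 17 comparisons had exact adjusted p-values of 0.146 or more. The CtIP_KO share upstream of the Sε core, 14% against 3.60%, had an odds ratio of 4.32 with an interval of 1.12 to 18.2 (exact adjusted p = 0.146).

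The frequency of blunt, microhomology and insertion joins did not differ detectably between inversional and deletional joins. In Wildtype Sγ1, 22.3% of inversional joins were blunt, 50.9% had microhomology and 26.8% had inserted bases, against 23.0%, 51.2% and 25.8% of deletional joins, with odds ratios of 0.958 (0.721 to 1.26), 0.990 (0.786 to 1.25) and 1.05 (0.808 to 1.36). In Wildtype Sε the shares were 19.4%, 52.5% and 28.1% against 25.5%, 48.8% and 25.7% (odds ratio for blunt joins 0.705, 0.440 to 1.09). None of the 24 comparisons over classes, regions and libraries passed Fisher's exact test after adjustment, and 2 had an unadjusted p under 0.05, both in XRCC4_KO in Sγ1. There 77.6% of inversional and 69.2% of deletional joins had microhomology (odds ratio 1.54, 1.05 to 2.32), and 11.2% and 17.4% had insertions (odds ratio 0.598, 0.343 to 0.989), each with an exact adjusted p = 0.469.

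In CtIP_KO the class shares of the strands were within 4 percentage points of each other in both regions. Sγ1 had 25.8% blunt, 50.5% microhomology and 23.7% insertion joins against 23.7%, 50.9% and 25.4%, and Sε had 32%, 46% and 22% against 28.9%, 45.7% and 25.4%. Of the 16 listed blunt inversional Sε reads of CtIP_KO, 4 had a bait alignment away from the primer. CtIP_AA had 25%, 48% and 27% against 21.9%, 50.0% and 28.1% in Sγ1. In Sε 15 of 42 inversional CtIP_AA joins were blunt (35.7% against 24.3%, odds ratio 1.73, 0.834 to 3.45, exact adjusted p = 0.788).

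**Figure D4:**
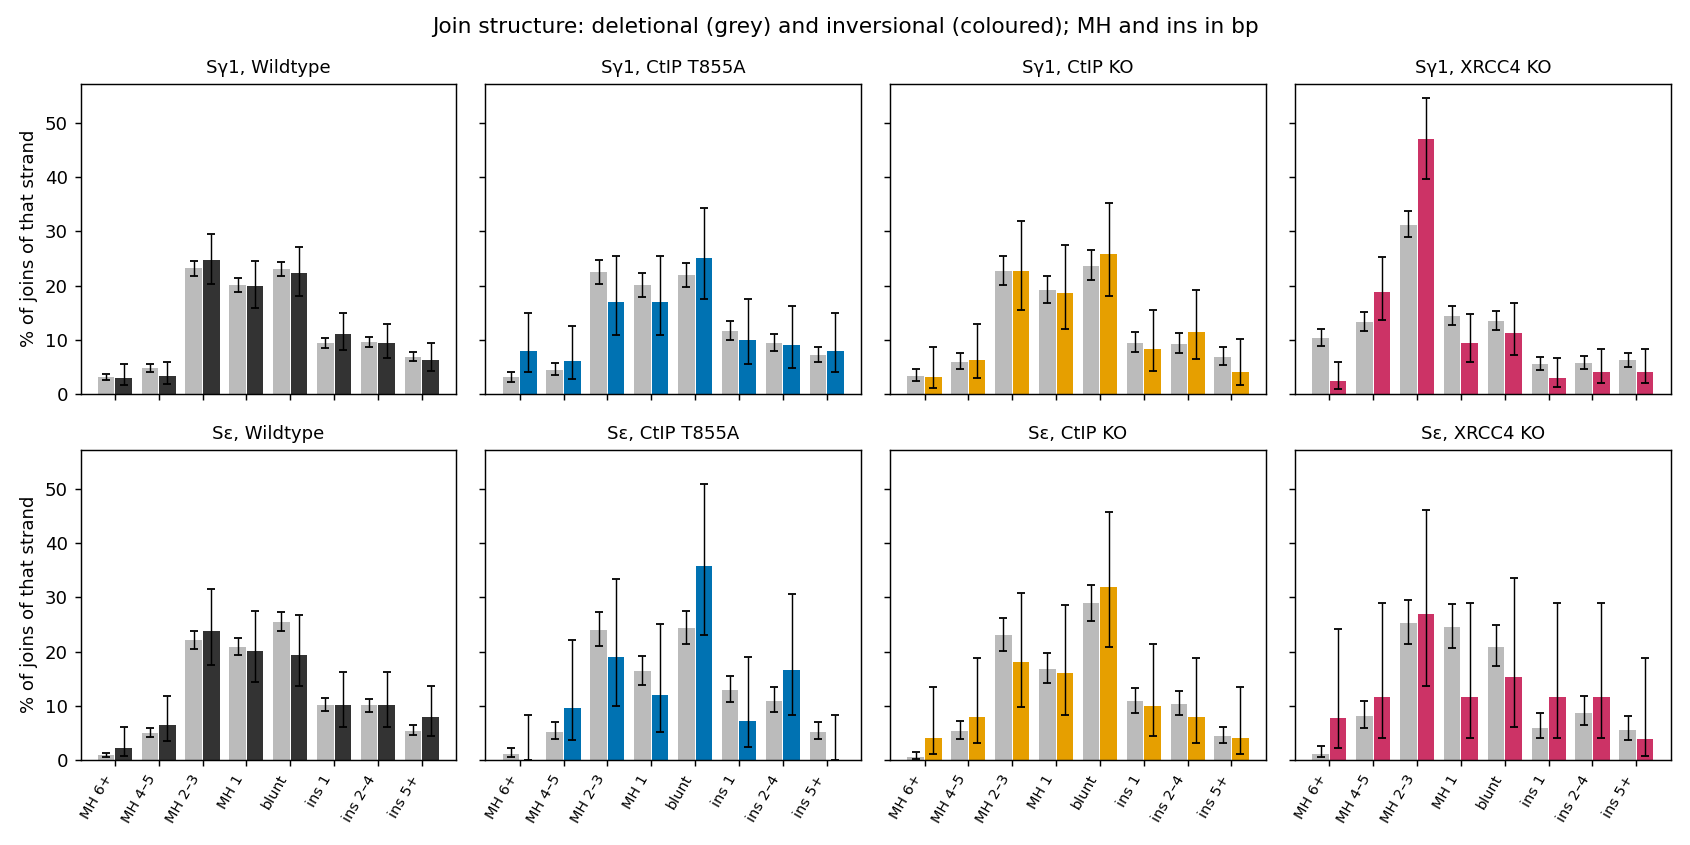
Join structure in Sγ1 (top) and Sε (bottom) by library, as the percent of joins of that strand in each class of microhomology (MH), blunt or insertion (ins) joins, lengths in bp, for deletional (grey) and inversional (coloured) joins with 95% Wilson intervals. The bars of both strands are close in Wildtype and CtIP_KO in Sγ1. In XRCC4_KO inversional Sγ1 joins stand at 47.1% with 2 or 3 bp of microhomology and at 2.35% with 6 or more, against 31.3% and 10.4% of deletional ones.

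No difference in the length of microhomology passed at the chosen limit of 4 bp in any of the 8 lists. Over joins with 1 to 15 bp, 4 or more bp were found in 12.4% of inversional and 15.3% of deletional Wildtype joins in Sγ1, and in 16.4% and 12.0% in Sε. In CtIP_AA in Sγ1 they were 14 of 48 (29.2%) and 98 of 656 (14.9%), an odds ratio of 2.34 (1.12 to 4.68) that did not pass (exact adjusted p = 0.111). At 6 or more bp, 8 of 48 (16.7%) against 6.10% did (odds ratio 3.07, exact adjusted p = 0.0476). In XRCC4_KO in Sγ1 the odds ratio was below 1. Its shares at 4 or more bp were 27.3% and 34.1% (odds ratio 0.726, 0.469 to 1.10, exact adjusted p = 0.280), and at 6 or more bp they were 3.03% (4 of 132) and 15.0% (147 of 983), an odds ratio of 0.178 (exact adjusted p = 0.00027). Of its 170 inversional Sγ1 joins 80 (47.1%) had 2 or 3 bp and 32 (18.8%) had 4 or 5 bp, against 31.3% and 13.2% of deletional joins. Repeated reads could not be counted once in this comparison, because the reads behind it were not used here; among its 19 listed blunt inversional Sγ1 reads, 7 repeated another read.

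In Sε every library had a higher inversional than deletional share at 4 or more bp, and no difference passed (exact adjusted p = 0.279 or more). Beside the Wildtype values above, the shares were 33.3% (5 of 15) and 15.6% in XRCC4_KO, 26.1% (6 of 23) and 12.6% in CtIP_KO, and 23.5% (4 of 17) and 13.2% in CtIP_AA.

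The sequences of the long-microhomology joins of CtIP_AA show that many share a bait end. Of the 8 inversional Sγ1 joins with 6 or more bp, 5 stopped at the same Sμ base, 114664829, and shared the 8 bases GCTGCTCT with Sγ1. In the reads below, capitals mark the bases that the alignments to Sμ and to the target both cover, which is how microhomology was read here. Of the 15 listed inversional joins with 6 or more such bases, 11 matched the Sμ bases read in blunt joins and the germline window throughout, among them all 8 of CtIP_AA.

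CtIP_AA, Sγ1 114573712: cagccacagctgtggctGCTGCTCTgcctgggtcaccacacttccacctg

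CtIP_AA, Sγ1 114574739: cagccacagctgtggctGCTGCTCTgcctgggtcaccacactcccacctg

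CtIP_AA, Sγ1 114574984: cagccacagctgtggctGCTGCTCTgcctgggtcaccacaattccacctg

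CtIP_KO, Sγ1 114574494: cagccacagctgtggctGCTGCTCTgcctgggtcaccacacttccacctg

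The 2 other CtIP_AA joins of this kind, at 114574298 and 114574396, read exactly as the one at 114573712 over these bases, and so did the single CtIP_KO join. The placed coordinates thus lie in different copies of the Sγ1 repeat while the printed bases differ little or not at all. With reads of the same strand, bait end and first 25 target bases counted once, CtIP_AA had 11 of 43 inversional joins with 4 or more bp (25.6%) against 83 of 564 (14.7%), with an odds ratio at 1.99 (0.869 to 4.25, exact adjusted p = 0.131). At 6 or more bp this left 5 of 43 (11.6%) and 30 of 564 (5.32%), and the call at that length was lost (odds ratio 2.34, 0.670 to 6.58, exact adjusted p = 0.123). The most frequent shared stretch of the 40 deletional CtIP_AA joins of this length was AGCCAG, in 11 of them, and that of the 30 in CtIP_KO was the same, in 8.

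Long microhomology was also seen in single inversional joins elsewhere. The longest listed overlaps were 13 bp in Sγ1 and 11 bp in Sε, both in CtIP_KO. Each differs from Sμ at 1 base, so neither is shared sequence over its whole length. The 13 bp one also differs from the germline window at 1 of the 10 bases compared. The XRCC4_KO overlap of 7 bp is exact. Capitals mark the overlap again.

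CtIP_KO, Sγ1 114576759: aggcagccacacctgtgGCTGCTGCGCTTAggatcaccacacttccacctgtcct

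CtIP_KO, Sε 114515240: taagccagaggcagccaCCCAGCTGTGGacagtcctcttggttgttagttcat

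XRCC4_KO, Sε 114516375: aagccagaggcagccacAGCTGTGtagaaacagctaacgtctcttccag

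The CtIP_AA library also had a join at 114576759, with 7 bp of overlap, GCTGCTG. The CtIP_KO overlap at that position begins with the same 7 bases. The bait alignments ended at 114664833 in CtIP_AA and, with the longer overlap, at 114664827 in CtIP_KO. Whether both are the same junction was not tested. The XRCC4_KO join, with 7 bp, lay beyond the upstream border of the Sε core, as did the CtIP_KO join at 114515240.

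Insertions did not differ detectably in length between the strands. Of inversional joins with insertions, 2 or more bp were added in 58.4% in Wildtype Sγ1 (52 of 89) against 63.5% of deletional ones, and in 64.1% against 60.3% in Sε. None of the 8 comparisons passed, nor had any an unadjusted p under 0.05 (Fisher's exact test, adjusted p = 1 for each). Joins with more than 30 inserted bases are not in those totals and numbered 0 to 3 on the plus strand per region in Wildtype, CtIP_AA and CtIP_KO. Their inversional share did not differ detectably from that of the other joins (6 comparisons, exact adjusted p = 0.801 or more).

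Against Wildtype, inversional joins of XRCC4_KO changed in structure. Over both regions, blunt joins fell from 21.4% to 11.7% (odds ratio 0.488, 0.285 to 0.805, exact adjusted p = 0.0116). Microhomology joins rose from 51.4% to 75% (odds ratio 2.83, 1.93 to 4.20, exact adjusted p = 1.63e-07), and insertions fell from 27.2% to 13.3% (odds ratio 0.410, 0.248 to 0.658, exact adjusted p = 0.000573). Joins with 4 or more bp rose from 13.6% to 27.9% of those with microhomology (odds ratio 2.44, 1.42 to 4.24, exact adjusted p = 0.00395). Of the 196 inversional joins of XRCC4_KO, 170 were in Sγ1, and in the 26 of Sε alone no class passed (odds ratio for microhomology 1.23, exact adjusted p = 0.985). Repeated reads count in all these values and could not be removed. Among listed blunt inversional Sγ1 reads, 7 of 19 in XRCC4_KO and 14 of 74 in Wildtype repeated another read.

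Inversional joins of CtIP_AA had 4 or more bp in 18 of 65 microhomology joins (27.7%) against 33 of 242 in Wildtype (13.6%), with an odds ratio at 2.42 (1.18 to 4.87, exact adjusted p = 0.0404). This count includes the 5 joins of 1 bait end described above. CtIP_KO had 15 of 72 (20.8%, odds ratio 1.66, 0.783 to 3.41, exact adjusted p = 0.262). The blunt shares of CtIP_AA and CtIP_KO were 28.2% and 27.9% against 21.4%, with odds ratios of 1.44 and 1.42 and the same exact adjusted p = 0.249. Whether these changes against Wildtype differed between inversional and deletional joins was tested by Woolf's test, and none of 54 comparisons passed. The smallest adjusted p, 0.134, was shared by the share with 4 or more bp in CtIP_AA in Sγ1 (odds ratio 2.90 for inversional and 0.971 for deletional joins) and that with 6 or more bp in XRCC4_KO, in Sγ1 (0.532 and 2.72) and over both regions.

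Repeated coordinates made up a smaller share of inversional than of deletional joins in 7 of 8 lists, CtIP_KO in Sγ1 being the exception. In Sγ1 the inversional joins that shared their position with another of the same library were 36.7% of those of Wildtype, 22.4% of XRCC4_KO, 34.0% of CtIP_KO and 17% of CtIP_AA, with at most 5 joins at 1 position. For deletional joins the shares were, in that order, 61.0%, 39.2%, 31.1% and 39.8%. In Sε they were 18.0%, 0%, 10% and 4.76% for inversional and 62.4%, 14.9%, 34.2% and 31.4% for deletional joins. A denser set of joins meets itself more often, and identical reads add to it, so these shares carry no test. Across libraries, 25 of 549 inversional Sγ1 positions (4.55%) and 8 of 231 in Sε (3.46%) were found in more than 1 library. Of 112 blunt inversional Sγ1 joins, 1 had both its ends in common between libraries, and in Sε none of 60 did.

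Inversional and deletional ends were not paired base for base in Sγ1. The opposite end of an unprocessed break would lie at the coordinate just below an inversional position. Of 574 inversional positions there, counted within libraries, 21.3% had a deletional join of the same library at that adjacent coordinate. This was within the 19.0 to 26.3% found at offsets of 1 to 10 bp to either side of it. In Sε 42.3% of 239, pooled over the libraries, did, above the 33.1 to 39.7% found at the same offsets. In no library by itself was the Sε share highest at the adjacent coordinate. The share there was 57.9% in Wildtype and 29.3% in CtIP_AA, against up to 61.1% and 34.1% at the other offsets. In CtIP_KO and XRCC4_KO it was 26.1% and 15.4%, against up to 28.3% and 23.1%. These are descriptions with no test.

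The bases around blunt inversional joins held the AID target motif AGCT about as often as those of deletional joins. In windows of 20 bases centred on the join, each distinct join counted once and the motif reading the same on both strands, 34 of 113 inversional Sγ1 windows (30.1%, 22.4 to 39.1) and 36.4% of deletional ones contained it. In Sε 37 of 61 (60.7%, 48.1 to 71.9) and 54.9% did.

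The length of Sμ kept did not differ detectably between strands. Blunt inversional joins kept a median of 64 bp of Sμ bait in Wildtype in both regions, against 65 bp for deletional joins in Sγ1 and 64 bp in Sε. In XRCC4_KO in Sγ1 the medians were 45 bp (19 reads, of 12 distinct joins) and 60 bp. There 26.3% of inversional and 52.5% of deletional reads were longer than the pooled median, a difference that did not pass (odds ratio 0.325, 0.0879 to 1.01, exact adjusted p = 0.410). In the other comparisons of the 8 the exact adjusted p was 0.421 or more.

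A few inversional reads held a further piece of DNA between Sμ and their target. In CtIP_KO in Sε, 6 of 49 listed inversional reads (12.2%) and 13 of 713 deletional reads (1.82%) had a bait alignment away from the primer (odds ratio 7.47, 2.22 to 22.4, exact adjusted p = 0.00648 over 12 comparisons of listed reads). Of these, 5 joined the same Sε base, 114514087. All 5 listed sequences began with the nested primer. The alignment before the Sε end began at base 44 to 48, and at most 3 of the bases ahead of it differed from Sμ. It was a minus-strand stretch of Sγ1 of 380 to 1157 bp, with lower ends between 114573230 and 114574007 and upper ends between 114574386 and 114574435, and the 5 reads were 4 distinct joins. The Sε end of these reads was thus next to Sγ1 rather than Sμ, and the lists count it as an inversional Sε join. The listed sequences were 544 to 1325 bases long, and the sources used here do not say how they were put together. Without that position 1 of 44 inversional reads remained (odds ratio 1.25, 0.0288 to 8.71, exact p = 0.571), so the difference rests on this coordinate. The Sε bases at it, with those kept by the inversional join in capitals, were the following.

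chr12:114514077-114514096: ccagctcagcTCAGTTCAGC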

How the data were processed

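Junctions were read by high-throughput genome-wide translocation sequencing from a primer in Sμ, with linear amplification, nested PCR and MiSeq, as the labels' protocols state. The submitters' processing notes name Bowtie2 and mm9. The sources used here do not say how junctions were called or deduplicated.

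The deposited values are of other kinds than expression: 1 coordinate per junction and strand, and, per the file headers, junction counts per strand and bin of overlap or insertion, used as deposited. The lengths of all 16 position lists equalled the summed counts. Lists begin with lines in read order, where there are any, and go on with lines sorted by position. Repeated positions were found in both parts. In Wildtype Sε they were more frequent in the sorted part, at 17.1% against 5.88% of inversional lines and 50% against 34.1% of deletional ones. The read-order lines were 39.4 to 59.6% of inversional lines in Sγ1 and 0 to 24.5% in Sε.

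Strands and libraries were compared with two-sided Fisher's exact tests (conditional odds ratio, exact 95% interval), Benjamini-Hochberg adjusted within each kind of result at 0.05. Medians have exact order-statistic intervals. Woolf's test (0.5 added to each cell) compared odds ratios. The tests were tried on simulated data with independent joins, which cannot show how they behave where reads repeat. Whether overlaps match Sμ was checked against the most common base at each Sμ position in blunt reads. Reads were used where a table was held: blunt joins of each library, and all joins of CtIP_AA and CtIP_KO in Sγ1 and of CtIP_KO and XRCC4_KO in Sε. Regions named are the 3 bins of 500 bp with most inversional joins, and coordinates with most joins. The members, lists and tests were chosen with earlier results of these data known. Computation used scipy 1.17.1, numpy 2.4.6 and pandas 2.3.3 in Python 3.11.15, and plots used matplotlib 3.10.9.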

Additional observations from a re-analysis of the deposited data

How the results depend on the processing

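Of 331 values under alternative settings, 266 kept their direction and their side of the threshold, and the cause was not tested for the rest. This count is not a measure of robustness, because some values could not change. Leaving out microhomology over 15 bp left the comparisons with Wildtype as they were. The pooled-median comparisons do not use the core. Each value with regions summed in a comparison of strands was entered once per region. All values below are odds ratios of Fisher's exact test. The XRCC4_KO inversional share in Sγ1 (odds ratio 1.34) became 1.18 with each position once (exact adjusted p = 0.291), 1.24 within the core (exact adjusted p = 0.150) and 0.945 outside it (exact adjusted p = 0.912), and its Sγ1 share over that of Sε became 1.62 outside the core (exact adjusted p = 0.834). At 6 or more bp the microhomology comparisons of strands in Sγ1 passed for CtIP_AA (3.07) and XRCC4_KO (0.178), and with both regions summed CtIP_AA passed (2.28, exact adjusted p = 0.0268). In Sε alone the changes against Wildtype did not pass, with 1.56 for 4 or more bp in CtIP_AA, and in XRCC4_KO 0.755 for blunt, 1.23 for microhomology, 0.945 for insertion joins and 2.51 for 4 or more bp.

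For positions, the central 90% core gave 0.335 downstream of Sγ1 in XRCC4_KO, and each position once gave 0.332. The central 99% core, with few joins beyond it, gave 3.75 upstream of Sγ1 in CtIP_KO (exact adjusted p = 0.168), 0 in Sε in CtIP_KO, and 13.9 in Sε in XRCC4_KO (3 of 26 joins, exact adjusted p = 0.0191). The median comparison of CtIP_KO in Sγ1 passed with each position once (1.68) and that of XRCC4_KO did not within the core (1.32, exact adjusted p = 0.208). XRCC4_KO against Wildtype upstream of Sγ1 became 2.10 with each position once. With the sorted lines only, chosen after seeing the data, it became 2.11 (exact adjusted p = 0.144), the CtIP_KO median comparison became 2.95 (exact adjusted p = 0.00141), and the Sγ1 median differences between strands grew to 1678, 1422, 1609 and 2384 bp. Counting each sequence once was also chosen after seeing the data. In the 4 lists whose reads were held it gave no call at 4 or more bp, where there was none to lose, and at 6 or more bp CtIP_AA in Sγ1 no longer passed (2.34, exact adjusted p = 0.123).

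A further 42 values that passed under neither setting changed direction, all with an exact adjusted p above 0.05. Of the inversional shares, with each position once CtIP_KO became 0.860 in Sγ1, and in Sε CtIP_AA became 0.814, CtIP_KO 0.950 and XRCC4_KO 0.777. Within the core CtIP_AA and XRCC4_KO in Sε became 0.924 and 0.944, in the sorted lines 0.930 and 0.993, and outside the core CtIP_KO in Sγ1 became 0.886. With regions summed, the strand comparison of microhomology joins became 1.05 for Wildtype and 1.01 for CtIP_KO, and against the Sε values of XRCC4_KO it became 1.49 for microhomology and 0.695 for insertions. Long microhomology became 0.966 for Wildtype and 0.892 for XRCC4_KO, and long insertions became 0.918 for Wildtype, 1.05 for CtIP_KO and 1.01 for XRCC4_KO. At 2 or more bp of microhomology, Sγ1 became 1.01 in Wildtype and 1.90 in XRCC4_KO. At 6 or more bp, CtIP_KO in Sγ1 became 0.985 and CtIP_AA in Sε 0. At 3 or more inserted bases, CtIP_KO in Sγ1 became 0.658 and CtIP_AA in Sε 0.958. Against Wildtype, CtIP_AA insertions became 1.01 in Sγ1 alone, and long insertions in Sε alone 0.678 in CtIP_KO and 0.752 in XRCC4_KO. Downstream of the core, the strand comparison with the central 90% became 0.649 and 0.826 in Wildtype and CtIP_KO in Sγ1 and 0.606 in XRCC4_KO in Sε. With the central 99% it became 0 in Sε in Wildtype, CtIP_AA and XRCC4_KO, and with each position once 0.795 and 0.764 in Wildtype in Sγ1 and Sε. Of inversional positions against Wildtype, CtIP_KO upstream of Sγ1 became 0.991 with each position once, 0.878 with the central 90% and 0.930 in the sorted lines. Downstream, CtIP_AA and XRCC4_KO in Sε became 0.820 and 0.656 with the central 90%, and CtIP_KO and XRCC4_KO in Sγ1 0.964 and 0.804 in the sorted lines.

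No paired analysis was possible because each genotype is 1 library and the labels carry no replicate number, and for the same reason no replicate was left out. The mutant lists of 26 to 50 inversional Sε joins limit every Sε statement.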
